A study of Rattus norvegicus with 8 samples.

Results

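The comparison set all ventilated rat lungs of the study, in the prone and supine positions together, against non-ventilated lungs. Arrays were assigned by their titles, and all 8 arrays of the series took part: 6 ventilated and 2 control. All came from adult male Sprague-Dawley rats (Harlan) of 340 to 400 g. Control rats received no ventilation. The other rats were anaesthetised, had a tracheotomy and a jugular cannula, and were ventilated for up to 3 hours. Their tidal volume was high, 18 mL per kg body weight, at 40 breaths per min and a positive end-expiratory pressure (PEEP) of 0 cmH2O. There were 3 prone and 3 supine animals. Supine titles carry the letters SVt and prone titles HVt, while high tidal volume is the labelled condition of either position; the sources used here do not spell out SVt. They also do not say whether controls had the same anaesthesia, tracheotomy and cannula, so ventilation and these procedures cannot be told apart. Each array holds RNA of the dorsal caudal lung quadrant, and each title calls its array a biological replicate.

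Mechanical ventilation with large breaths stretches the alveolar wall beyond its normal range and, without end-expiratory pressure, lets air spaces close and reopen with each breath. Lung cells answer such strain with stress chaperones, oxidant defence enzymes and cytokines, and neutrophils are drawn into the lung. The alveolar wall is built of thin type 1 cells for gas exchange, surfactant-making type 2 cells and capillary endothelium, while a mesothelial sheet covers the lung surface. Glucocorticoid hormones released under stress or surgery switch on a set of genes of their own.

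Per-array medians lay between 7.77 and 7.95 on the log2 scale, on which a difference of 1 is a 2-fold change. The gap between the 3′ and 5′ control probe sets of beta-actin, a sign of RNA quality, was 9.10 on supine replicate 3 and 3.16 to 4.64 on all others. For GAPDH it was 8.41 there and 0.70 to 1.92 elsewhere. Lung markers were high on every array: surfactant protein gene Sftpc read 15.02 to 15.51, the club cell gene Scgb1a1 15.35 to 15.72, the type 1 cell gene Ager 13.29 to 14.54 and the endothelial gene Pecam1 10.36 to 12.48. In RNA of a whole tissue piece, fewer cells of a type and less RNA per cell cannot be told apart.

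Ventilated and non-ventilated lungs differed past the adjusted threshold for a small set of genes. Genes of interleukin-1 and neutrophil biology (Il1r2, Mmp9), of oxidant defence (Srxn1) and of the glucocorticoid response (Fkbp5) rose, and mesothelial genes (Scel, Bnc1, Cdh3), the endothelial gene Tmem100 and the lipid enzyme Scd fell. Of these, Il1r2, Scel and Bnc1 kept their call in the fit with the replicate number as a block. Only probe sets at log2 5 or above on 2 or more arrays were tested. Srxn1, Mmp9, Scel and Bnc1 were below 5 throughout 1 group, so this filter set their direction. Of 16896 tested probe sets, 82 passed (limma, Benjamini-Hochberg adjusted p under 0.05), which is 0.485% of those tested. The 28 that rose (0.166%) had a median difference of 3.16 and the 54 that fell (0.32%) a median of -2.38. Among 10240 named genes, each read by its brightest probe set, 45 passed (0.439%), 13 higher and 32 lower. All 82 probe sets had ventilated arrays entirely on one side of both controls, as had 29.6% of all tested probe sets. An unadjusted p under 0.05 was reached by 1484 probe sets with higher and 1862 with lower values (8.78% and 11%), or 3346 in all (19.8%). Over the 10240 genes, 42.7% were higher on average in ventilated lungs, 29.7% did not overlap between the groups (11.9% higher, 17.8% lower), and 7.78% were higher and 11.6% lower at an unadjusted p under 0.05. These shares are the background for every list count below.

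**Figure D1:**
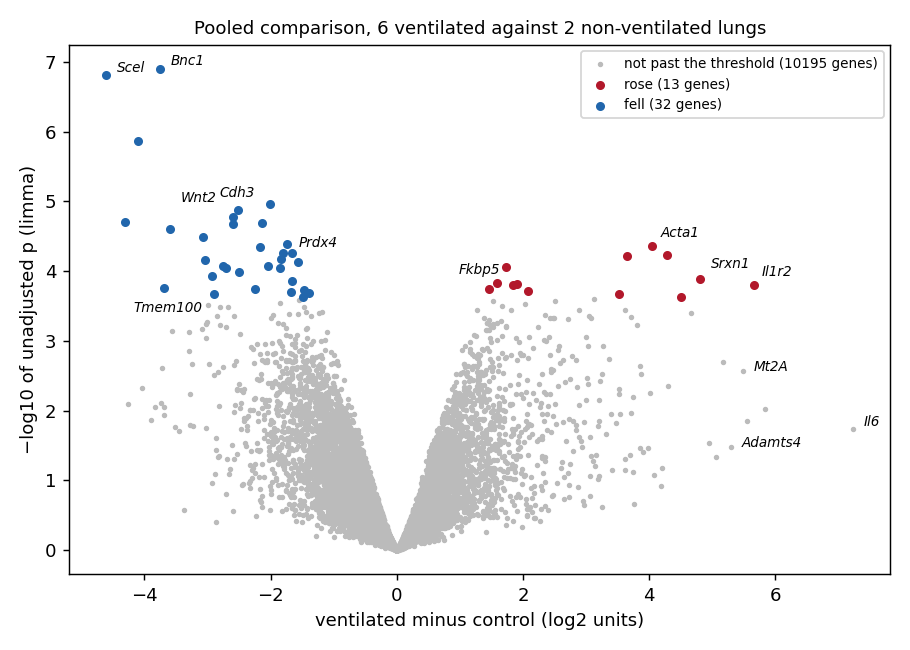
Difference between ventilated and control lungs (log2 units, x axis) against the −log10 of the unadjusted limma p (y axis), 1 point per gene for 10240 genes. The 13 genes that rose are red and the 32 that fell blue and Il6, with a difference of 7.24, lies below the called genes.

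Calls were more frequent among large differences, but most large differences did not pass. Of 192 genes with ventilated means at least 2 log2 units above controls, 8 passed, and of 163 at least 2 units lower, 21 passed. The median SD among the 6 ventilated arrays was 0.52 over all genes and 0.31 over the called ones. The values of 39 of the 54 falling probe sets averaged below 5 in ventilated lungs, and 12 of the 28 rising ones averaged below 5 in controls. That is the dim end of this array, where the size of a difference is uncertain.

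Il1r2, a decoy receptor that binds interleukin-1 without signalling, gave the largest rise of all called genes. It read 5.78 and 5.32 on the control arrays and 9.65, 10.79 and 13.30 (lowest, median and highest) on the 6 ventilated arrays. Each ventilated value was well above both controls, and the highest were the first prone and first supine animals, at 13.30 and 12.40. Il1r2 rose by 5.66 ± 0.89 (SE; 6 ventilated against 2 control arrays; adjusted p = 0.0445), and with the replicate number as a block the adjusted p was 0.0459. Beside each called gene below, the adjusted p with that block follows the one without it. Of the called genes it stayed under 0.05 for Il1r2, Stfa2l2, Scel, Bnc1 and Tspyl4 only. Values below follow the same order, the 2 controls and then the lowest, median and highest ventilated array, all as log2 levels. Mmp9, a gelatinase stored in neutrophil granules, read 3.62 and 3.81 in controls and 6.94, 7.81 and 9.73 in ventilated lungs. Its arrays did not overlap either, and it rose by 4.50 ± 0.74 (adjusted p = 0.0488, or 0.0661 with the block). A dimmer probe set of Mmp9 differed by 2.79 ± 1.29 and did not pass (adjusted p = 0.274). Stfa2l2, a gene of the stefin A family of cysteine protease inhibitors, read 10.05 and 9.12 against 12.32, 13.13 and 14.06 and rose by 3.65 ± 0.50 (adjusted p = 0.033, or 0.0266 with the block).

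Il1r2 and Mmp9 also belong to the neutrophil marker list. Of 26 listed markers 14 were tested, and 3 of them, Mmp9 and Mmp8 among them, entered the test only through ventilated arrays. For these the filter set the direction. Tested markers were higher in ventilated lungs in 11 of 14 cases and 9 lay above both controls on every ventilated array, against 11.9% of all genes; the 2 named passed. Their median difference was 2.15, where the median of all genes was -0.12. The summed level of the list, taken on the linear scale and given as log2, was 13.88 to 14.10 in controls and 15.20 to 17.27 in ventilated lungs. S100a8 and S100a9, which encode the abundant calcium-binding calprotectin of neutrophils, read 11.63 and 11.50 and 13.01 and 12.68 in controls. Ventilated lungs gave 13, 13.91 and 15.36 for S100a8 and 14.17, 14.68 and 15.55 for S100a9, without overlap. Their differences of 2.56 ± 0.67 and 1.95 ± 0.42 did not pass (adjusted p = 0.11 and 0.0835), nor did that of the granulocyte colony-stimulating factor receptor Csf3r (3.74 ± 1.04, adjusted p = 0.121). How much of the rise of Il1r2 and Mmp9 went with the number of neutrophils in the tissue was not tested. The list median stood between 1.20 and 3.71 on the ventilated arrays, was highest on the first prone and first supine arrays, and was 1.37 without them.

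The other tested genes of interleukin-1 and interleukin-6 receptors and their feedback missed the threshold. Il6st, the shared signalling chain gp130, read 11.80 and 11.64 in controls and 12.78, 13.10 and 13.40 in ventilated lungs (1.38 ± 0.25, adjusted p = 0.055). Of 15 tested members of that list 12 were higher, 6 without overlap (11.9% of all genes), and 3 lower, and Il1r2 was the 1 that passed. Of the 15, 3 entered the test only through ventilated arrays, which a gene dim in controls can do only where it is high when ventilated. Il1b, the interleukin-1 ligand itself, read 9.49 and 8.16 against 11.02, 11.75 and 13.14, again without overlap (3.05 ± 0.55, adjusted p = 0.055). Bcl3, a nuclear partner of NF-kappaB subunits, moved from 5.42 and 5.12 to 8.05, 10.18 and 11.22, a difference of 4.67 ± 0.83 (adjusted p = 0.0545). For NF-kappaB subunits, targets and feedback genes, 21 of 23 tested members were higher and 9 lay above both controls throughout (11.9% of all genes). Of these genes 0 passed, while 7 were higher at an unadjusted p under 0.05 (7.78% of all genes). Here 2 entered only through ventilated arrays. Their median difference of 1.17 was 0.66 without the first prone and first supine arrays.

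Oxidant defence was represented by Srxn1, the sulfiredoxin that restores over-oxidised peroxiredoxins. Its control values of 4.69 and 4.06 were dim, and the ventilated arrays read 7.85, 8.95 and 11.05. The groups did not overlap, and Srxn1 rose by 4.80 ± 0.73 (adjusted p = 0.0414, or 0.104 with the block). Akr1b8, an aldo-keto reductase that reduces reactive aldehydes, read 7.72 and 7.65 in controls and 10.58, 11.93 and 13.18 in ventilated lungs. It rose by 4.28 ± 0.58 (adjusted p = 0.033, or 0.0889 with the block) without overlap. In the NRF2 oxidant response list 14 of 21 tested genes were higher, 10 of them without overlap (11.9% of all genes), and Srxn1 alone passed. Srxn1 and Slc7a11 entered the test only through ventilated arrays, so their direction was set by the filter. The list median was 0.53. Hmox1, which degrades haem, differed by 3.40 ± 1.05 (adjusted p = 0.143), Slc7a11, the cystine importer, by 2.75 ± 0.69 (0.102), and Gclm, a subunit of the glutathione-making ligase, by only 0.53 ± 0.23 (0.245). Prdx4, the peroxiredoxin of the endoplasmic reticulum, went the other way. It read 12.38 and 12.49 in controls and 10.49, 10.74 and 10.85 in ventilated lungs, a tight fall by 1.73 ± 0.22 (adjusted p = 0.0324, or 0.0861 with the block).

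Fkbp5, a co-chaperone of the glucocorticoid receptor that glucocorticoids induce, read 8.92 and 9.21 in controls and 10.43, 10.92 and 11.27 in ventilated lungs. The groups did not overlap, and Fkbp5 rose by 1.84 ± 0.29 (adjusted p = 0.0445, or 0.104 with the block). A dimmer probe set of Fkbp5, singled out after its values were seen, read 6.13 and 6.55 against 9.01, 9.18 and 9.91 and rose by 2.98 ± 0.31 (adjusted p = 0.0135, or 0.0544 with the block). Metallothioneins, small proteins that bind zinc and copper, were higher on every ventilated array. Mt1 read 3.89 and 4.33 against 6.28, 7.45 and 8.03 (3.13 ± 0.52, adjusted p = 0.0511), just outside the threshold. Mt1 was tested only through ventilated arrays, so its direction was set by the filter. Mt2A read 7.24 and 6.98 in controls, 14.48, 11.78 and 10.07 on the prone arrays and 14.34, 10.47 and 14.44 on the supine arrays. Its difference of 5.49 ± 1.32 was larger but spread more widely (adjusted p = 0.0953). Of 21 tested genes of the glucocorticoid and metallothionein list (1 of them through ventilated arrays only) 13 were higher, 8 without overlap (11.9% of all genes). Il1r2 and Fkbp5 passed, and Il1r2 is the same call already counted in the interleukin receptor and neutrophil lists. The list median was 0.95, and it was 0.62 without control replicate 1, 0.58 without the first prone and supine arrays, and 0.41 when the probe sets of a gene were averaged.

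Heat shock chaperones, which refold damaged proteins, were higher in every case: 22 of 22 tested genes of 27 listed, none of which entered through ventilated arrays alone. The ventilated arrays of 15 of them lay above both controls throughout, against 11.9% of all genes, and the median difference was 1.73. None passed the adjusted threshold, while 12 were higher at an unadjusted p under 0.05 (7.78% of all genes). Hspa1a, an inducible Hsp70 chaperone, read 9.72 and 10.93 in controls, 14.61, 15.20 and 15.23 on prone and 11.75, 13.51 and 14.80 on supine arrays. The first and second supine animals were the lowest, and the difference was 3.86 ± 0.90 (adjusted p = 0.0894). Hsph1, a partner of Hsp70 that exchanges its nucleotide, read 10.60 and 10.89 against 12.56, 14.30 and 15.02 (3.27 ± 0.68, adjusted p = 0.0783). Ahsa1, which activates the Hsp90 ATPase, differed by 2.24 ± 0.43 (adjusted p = 0.0635) and Chordc1, an Hsp90 co-chaperone, by 2.63 ± 0.59 (0.0862). Prone arrays averaged 3.93 and supine arrays 2.60 above the same 2 controls for Hsph1. The corresponding list medians were 2.45 and 1.13.

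Promoter sequences were examined for 4 of these genes because each holds a letter pattern known from its class of stress or muscle gene. The sequences are the 250 bases before the start of the RefSeq gene in assembly GRCr8, 5′ to 3′ on the strand of the gene, with matches in capitals. In the Srxn1 promoter (chr3:161064562-161064811, plus strand) capitals mark the AP-1 site pattern TGANTCA, which begins 62 bases before the start. The antioxidant response element was not searched. In the Hsph1 promoter (chr12:10427118-10427367, plus strand) they mark GAANNTTC, a pair of heat shock element units, 31 bases before the start. The opposite order of this pair was not searched, so the capitals need not show every such site. In the Mt1 promoter (chr19:10832976-10833225, minus strand) they mark 6 metal response element cores, TGCGCNC or TGCACNC on either strand, between 176 and 55 bases before the start. In the Acta1 promoter (chr19:68784195-68784444, minus strand) they mark a CArG box, the pattern bound by serum response factor, 94 bases before the start.
Srxn1: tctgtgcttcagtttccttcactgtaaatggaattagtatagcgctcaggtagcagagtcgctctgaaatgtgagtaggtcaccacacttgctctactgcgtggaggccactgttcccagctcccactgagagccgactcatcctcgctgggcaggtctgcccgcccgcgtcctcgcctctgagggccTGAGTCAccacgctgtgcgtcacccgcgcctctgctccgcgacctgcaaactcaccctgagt
Hsph1: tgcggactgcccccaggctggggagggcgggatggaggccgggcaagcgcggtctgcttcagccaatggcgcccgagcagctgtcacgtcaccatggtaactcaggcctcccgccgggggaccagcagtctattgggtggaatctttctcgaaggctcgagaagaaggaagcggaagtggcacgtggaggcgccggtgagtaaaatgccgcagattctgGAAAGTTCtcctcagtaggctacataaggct
Mt1: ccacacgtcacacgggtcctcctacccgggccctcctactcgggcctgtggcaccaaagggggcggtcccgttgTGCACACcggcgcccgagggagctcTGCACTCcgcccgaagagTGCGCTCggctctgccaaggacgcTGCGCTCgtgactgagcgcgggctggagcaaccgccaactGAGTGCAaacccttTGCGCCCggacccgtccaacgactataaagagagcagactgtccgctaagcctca
Acta1: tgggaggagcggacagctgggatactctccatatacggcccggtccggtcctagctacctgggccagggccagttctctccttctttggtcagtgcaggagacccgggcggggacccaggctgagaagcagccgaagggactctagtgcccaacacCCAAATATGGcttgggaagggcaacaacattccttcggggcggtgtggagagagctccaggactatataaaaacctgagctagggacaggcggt

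All patterns were searched on both strands, after the values of the genes were seen. GAANNTTC occurred in the promoters of 10 of 19 tested heat shock genes with a promoter in the table, or 52.6%, and in 7.71% of 27457 gene symbols. The 10 were Hsph1, Hspb1, Hspb8, Dnajb1, Dnaja1, Bag3, Hspd1, Hspe1, Fkbp4 and Cacybp. Both shares leave out promoters that hold the units in the opposite order only. TGANTCA was found for 3 of 19 NRF2 list genes (15.8%; 6.99% of symbols): Srxn1, Gstp1 and Me1. The metal response element core was found for 6 of 17 genes of the glucocorticoid and metallothionein list (35.3%; 22.5% of symbols), Mt1 and Mt2A included. A CArG box was found for 1 of 20 stretch and YAP/TAZ list genes, Srf (5.0%; 1.62% of symbols). A match describes the letters only, and binding was not measured here.

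Acta1, the actin of skeletal muscle, read 3.71 and 2.39 in controls and 6.45, 6.92 and 8.36 in ventilated lungs. Both controls lay at the dim end, all ventilated values were above 6, and it rose by 4.05 ± 0.53 (adjusted p = 0.033, or 0.0756 with the block). It entered the test only through ventilated arrays, so its direction was set by the filter. Its highest value came from the first prone array. COX1, the mitochondrially encoded catalytic subunit of cytochrome c oxidase, was bright in all samples and had the smallest called rise. It read 13.40 and 13.62 against 14.79 to 15.20, a rise by 1.46 ± 0.23 (adjusted p = 0.0448, or 0.0915 with the block). COX2, encoded by the same organelle, read 15.40 and 15.52 against 15.28, 15.41 and 15.57 and did not differ past the threshold (-0.05 ± 0.22, adjusted p = 0.908).

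Further genes that rose were Mtfr2, a regulator of mitochondrial fission (3.53 ± 0.57, adjusted p = 0.0465, or 0.0756 with the block), Stambpl1, a deubiquitinating enzyme (2.08 ± 0.33, 0.0448, or 0.101 with the block), and Med13l, a Mediator subunit (1.73 ± 0.25, 0.0357, or 0.0889 with the block). Med13l had an SD of 0.21 among 6 ventilated arrays, but its other probe set differed by only 0.70 ± 0.53 (adjusted p = 0.485). Dimmer genes with calls were Kif20a, a kinesin of cell division (3.86 and 4.18 against 5.38, 5.56 and 5.86; 1.59 ± 0.25, adjusted p = 0.0437, or 0.0889 with the block), and Meg3, an imprinted long non-coding RNA (1.90 ± 0.30, 0.0444, or 0.0915 with the block). Kif20a and Meg3 entered the test only through ventilated arrays, so the filter set their direction. Angel2 and the DNA repair scaffold Slx4 came next by p and did not pass (1.52 ± 0.26 and 2.03 ± 0.35, adjusted p = 0.0513 and 0.0544), as did LOC100909675 (2.50 ± 0.42, 0.0513). The cell cycle list that holds Kif20a had 16 of 22 tested genes higher, 12 without overlap (11.9% of all genes). Its median was 0.75, with 2 tested through ventilated arrays only. Ccnb2, a mitotic cyclin, read 5.59 and 5.65 against 6.88, 7.46 and 7.94 (1.81 ± 0.32, adjusted p = 0.0544), and the proliferation marker Mki67 differed by 2.04 ± 0.67 (0.156). Mcm2, a subunit of the replication helicase, was lower without overlap (-0.91 ± 0.28, adjusted p = 0.139).

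**Figure D2:**
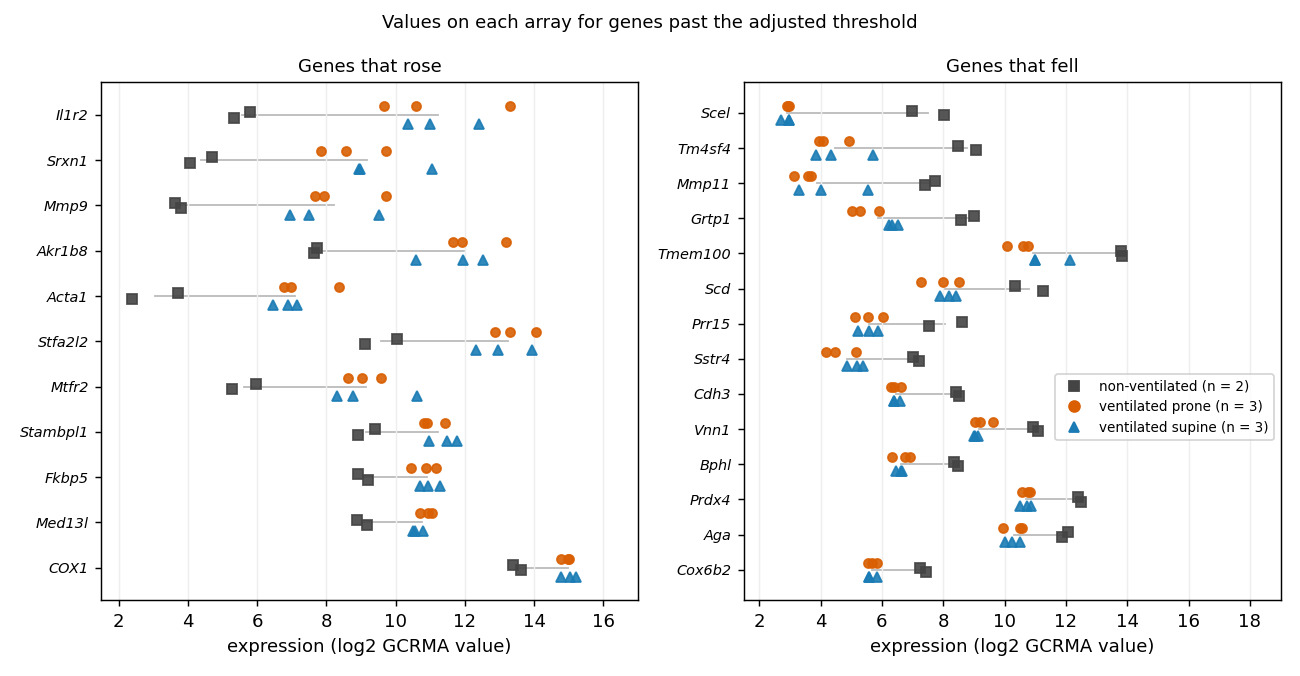
Values of 25 called genes on each array (log2 GCRMA value, x axis; squares non-ventilated, circles prone, triangles supine; each grey line joins the 2 group means). Ventilated symbols lie to the right of both controls for the genes that rose (left panel) and to the left for those that fell (right panel), with Il1r2 moving from 5.32 and 5.78 to 9.65 or more and Scel from 6.99 and 8.03 to below 3.

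The lowest p-values of the comparison belonged to Scel and Bnc1, which fell and are listed here as markers of mesothelium, the cell sheet on the lung surface. Scel, which encodes sciellin, a protein of the envelope of keratinising cells, read 6.99 and 8.03 in controls and 2.72, 2.96 and 2.98 in ventilated lungs. Bnc1, the zinc finger protein basonuclin 1, read 6.88 and 6.60 against 2.69, 3.06 and 3.11. All 12 ventilated values of the pair lay near 3, at the dim end, while every control was above 6. The pair entered the test only through controls, so the direction of both was set by the filter. Scel fell by 4.60 ± 0.30 and Bnc1 by 3.75 ± 0.24 (adjusted p = 0.00133 for each, or 0.0257 for each with the block). Cdh3, the adhesion protein P-cadherin, stayed above that end in all samples, at 8.43 and 8.52 against 6.31, 6.40 and 6.63. Its ventilated values lay close together, and it fell by 2.02 ± 0.22 (adjusted p = 0.0187, or 0.0661 with the block).

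Mesothelial markers as a list had 14 tested genes of 20, of which Scel and Bnc1 entered only through controls. They were lower in 11 cases and higher in 3. Of the lower ones 8 lay below both controls on every ventilated array, where 17.8% of all genes did. Scel, Bnc1 and Cdh3 passed, and of these Cdh3 alone had a direction that the filter left free. The summed list level was 15 on both controls and 14.16 to 14.72 in ventilated lungs. Gpm6a, a membrane glycoprotein abundant in mesothelium, read 12.26 and 12.29 against 8.37, 9.14 and 10.40, well within the bright range, and its difference of -3.02 ± 0.57 was next to the threshold (adjusted p = 0.0608). Lrrn4, a leucine-rich repeat protein, differed by -2.80 ± 0.53 (adjusted p = 0.0612). Its second probe set, dimmer and singled out after its values were seen, fell by 2.71 ± 0.23 (adjusted p = 0.00534, or 0.0459 with the block). That probe set was tested only through controls, so the filter set its direction. Upk1b, a uroplakin of mesothelial cells, read 10.40 and 9.88 in controls, 8.81, 6.48 and 5.86 on prone and 6.66, 4.23 and 4.52 on supine arrays (-4.05 ± 1.07, adjusted p = 0.112). The list median of -1.95 lay between -1.28 and -2.40 on single ventilated arrays. Whether the amount of lung surface in each tissue piece differed was not tested.

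Other called falls were Tmem100 and genes of secreted signals, gathered here after their values were seen. Tmem100, a membrane protein of lung endothelium that depends on BMP signalling through ALK1, was bright in controls. It read 13.81 and 13.84 there and 10.09, 10.87 and 12.13 in ventilated lungs. All ventilated arrays lay below both controls, and Tmem100 fell by 2.89 ± 0.47 (adjusted p = 0.0465, or 0.111 with the block). Wnt2, a ligand made by lung fibroblasts, fell by 2.52 ± 0.28 (adjusted p = 0.0202, or 0.0611 with the block) from a dim control level of 5.69 and 5.46. It was tested only through controls, so its direction was set by the filter. Further secreted signals fell as well: Wnt9a by 2.05 ± 0.29 (adjusted p = 0.0357, or 0.0889 with the block) and the hedgehog ligand Dhh by 2.70 ± 0.39 (0.0357, or 0.0777 with the block). Irx5, a homeobox transcription factor, read 6.09 and 6.16 against 4.61, 4.69 and 5.03 and fell by 1.40 ± 0.23 (0.0465, or 0.104 with the block). Wnt9a, Dhh and Irx5 reached log2 5 on a single ventilated array each (5.13, 5.09 and 5.03), where the filter asked for 2. They were tested only because of their control values, so the filter set their direction too. Sstr4, a somatostatin receptor, fell by 2.25 ± 0.36 (0.0448, or 0.101 with the block). Of these, Tmem100 alone had ventilated values above 6.

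Endothelial markers were lower in 24 of 25 tested genes (1 of them tested through controls only), 11 without overlap, with a median of -0.83, and Tmem100 was the 1 that passed. Of all genes, 17.8% were lower without overlap. Icam2, an adhesion molecule of resting endothelium, read 13.09 and 13.06 against 10.40, 11.08 and 11.87 (-1.94 ± 0.44, adjusted p = 0.0866). Nos3, the endothelial nitric oxide synthase, differed by -1.19 ± 0.27 (adjusted p = 0.0862). Pecam1, a defining marker, differed by only -0.50 ± 0.53 (0.622), and its lowest value was that of the array with the wide 3′ to 5′ gap, without which the difference was -0.20. Flt1, the VEGF receptor that was the exception of the list, was higher by 0.55 ± 0.33 on its brightest probe set and lower on another. Peptides and receptors that set vascular tone had 10 of 12 tested genes lower, 7 without overlap, with a median of -1.29, and 1 entered through controls only. Calcrl, the receptor of adrenomedullin and calcitonin gene-related peptide, read 5.25 and 6.51 against 3.05, 3.88 and 4.30 (-2.09 ± 0.43, adjusted p = 0.0768), and its partner Ramp1 differed by -1.89 ± 0.35 (0.0607). Apln, the vascular peptide apelin, differed by -2.58 ± 0.79 (0.141), and Adm, adrenomedullin, was higher by 1.11 ± 0.86 (0.496), or 1.82 without control replicate 1, 0.40 without control replicate 2 and 0.31 with both first ventilated arrays removed. The endothelial median was -0.53 without the first prone and supine arrays.

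Several of the called falls were enzymes, gathered here after their values were seen. Scd, stearoyl-CoA desaturase, which makes monounsaturated fatty acids, read 10.35 and 11.25 in controls and 7.26, 8.08 and 8.52 in ventilated lungs. It fell by 2.76 ± 0.39 (adjusted p = 0.0357, or 0.0915 with the block) without overlap. The related Scd2 read 14.01 and 14.05 against 11.45, 12.30 and 12.97, a difference of -1.77 ± 0.46 that did not pass (0.111). Fatty acid and sterol genes as a list had 12 higher and 11 lower of 23 tested genes, and Fdft1, squalene synthase, was higher by 1.22 ± 0.46 on its brightest probe set and lower on another. Vnn1, a pantetheinase of coenzyme A turnover, read 10.93 and 11.10 against 9.0, 9.09 and 9.64 and fell by 1.84 ± 0.26 (0.034, or 0.0889 with the block). Aga, a lysosomal amidase of glycoprotein breakdown, fell by 1.67 ± 0.27 (0.0448, or 0.0889 with the block), and Bphl, a serine hydrolase, by 1.80 ± 0.24 (0.033, or 0.0777 with the block). Cox6b2, an isoform of a cytochrome c oxidase subunit known from testis, fell by 1.67 ± 0.23 (0.033, or 0.0786 with the block).

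Respiratory chain genes encoded in the nucleus were lower almost throughout, by small amounts. Of 62 tested subunits 59 were lower, 33 below both controls on every ventilated array, and 0 passed, while 16 had lower values with an unadjusted p under 0.05. Their median was -0.49, against -0.12 for all genes. Of all genes, 17.8% were lower and 11.9% higher without overlap. Ndufa4 read 13.04 and 13.20 against 11.36, 11.99 and 12.28 (-1.18 ± 0.31, adjusted p = 0.11), and Ndufc2, a complex I subunit, differed by -1.04 ± 0.28 (0.116). Cox5a, a cytochrome c oxidase subunit, was the largest exception (0.99 ± 0.34, 0.171). COX1, encoded in mitochondria, is the called rise given above. Cytosolic ribosomal protein genes were lower in 27 of 34 tested cases, 17 without overlap, by a median of -0.22 (-0.14 with centred arrays). Genes of ribosome assembly were higher in 41 of 45 cases (1 tested through ventilated arrays only), 15 without overlap, with a median of 0.77. Utp20, which processes ribosomal RNA, differed by 2.41 ± 0.48 (adjusted p = 0.0712) and Wdr43, another nucleolar factor, by 2.57 ± 0.54 (0.0783). That median was 0.40 over prone arrays, 1.17 over supine arrays and 0.32 without the first array of each.

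Other called falls were matrix and membrane genes. Tm4sf4, a tetraspanin-like membrane protein, read 8.49 and 9.08 against 3.84, 4.21 and 5.72 and fell by 4.31 ± 0.51 (adjusted p = 0.0229, or 0.0661 with the block). Mmp11, the protease stromelysin 3, read 7.74 and 7.41 against 3.14, 3.64 and 5.54, and supine replicate 2 was its highest ventilated value. It fell by 3.69 ± 0.58 (adjusted p = 0.0448, or 0.106 with the block), while Mmp9, of the same family, rose. Tm4sf4 and Mmp11 reached log2 5 on a single ventilated array each, where the filter asked for 2. Both were tested only because of their control values, so the filter set their direction. Grtp1, a TBC domain protein, fell by 2.92 ± 0.44 (0.0406, or 0.0913 with the block) and Prr15 by 2.50 ± 0.37 (0.039, or 0.0889 with the block). Tspyl4 fell by 4.10 ± 0.35 (0.00534, or 0.0401 with the block) to values near 2 and 3, a direction set by the filter. The transcript 4930522L14Rikl, a gene with a clone-based name, fell by 1.85 ± 0.27 (0.0357, or 0.0915 with the block). Cyp26b1, which breaks down retinoic acid, fell by 5.27 ± 0.54 on a second probe set singled out after its values were seen (10.19 and 9.38 against 3.20, 4.61 and 5.28; adjusted p = 0.0135, or 0.0544 with the block). Its brighter probe set read 12.65 and 12.27 against 8.66, 10.20 and 11.24 and did not pass (-2.53 ± 0.67, 0.114). In the retinoic acid list, with 2 genes tested through ventilated arrays only, 9 of 14 were lower, 6 without overlap (17.8% of all genes), with a median of -0.88. Among the lower ones was Lrat, which esterifies retinol (-2.09 ± 0.60, 0.129). Crabp2, a retinoic acid carrier, was higher (2.08 ± 0.70, 0.165).

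Alveolar epithelial genes were lower without any call. Beside the counts here, 17.8% of all genes were lower without overlap and 11.6% lower at an unadjusted p under 0.05. Type 1 cell markers were lower in 13 of 15 tested genes, 11 without overlap, with a median of -0.92 and 7 at an unadjusted p under 0.05. Sema3e, a guidance signal of that list, read 12.85 and 12.78 against 10.94, 11.26 and 11.88 (-1.46 ± 0.32, adjusted p = 0.0835). Aqp5, the water channel of type 1 cells, read 13.03 and 12.76 against 10.21, 11.55 and 12.00 (-1.52 ± 0.45, 0.134). Pdpn, another type 1 marker, was higher without overlap (0.60 ± 0.29, 0.294). Type 2 cell markers were lower in 15 of 17 tested genes, 5 without overlap, with a median of -0.39 (-0.24 without prone replicate 3 and -0.19 with supine arrays only), and Etv5, a transcription factor that maintains these cells, gave the widest difference (-2.82 ± 0.83, 0.133). Tight and adherens junction genes were lower in 19 of 24 tested cases, 7 without overlap, by a median of -0.43. Cingulin, encoded by Cgn, read 8.40 and 8.34 against 6.11, 6.32 and 7.65 (-1.84 ± 0.41, adjusted p = 0.0861). Ion and water transport genes were lower in 11 of 17 (2 through ventilated arrays only), 6 without overlap, and the water channels Aqp4 and Aqp1 differed by -1.50 ± 0.56 and -1.24 ± 0.52 (0.196 and 0.237).

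Lymphocyte markers were lower in 24 of 26 tested genes, 9 without overlap (17.8% of all genes), with 0 calls and 12 lower at an unadjusted p under 0.05 (11.6% of all genes). Their median of -1.55 was -2.28 without control replicate 2 and -1.06 without control replicate 1, and the controls themselves stood at 0.61 and -0.61 around their mean on this list. Gzmm, a granzyme of natural killer cells, read 10.13 and 8.79 against 4.02, 5.67 and 7.69 (-3.74 ± 1.08, adjusted p = 0.13), and Cd79b, a chain of the B cell receptor, differed by -3.70 ± 1.10 (0.134). Macrophage and monocyte markers were higher in 9 and lower in 8 of 17 tested genes. Erythroid markers were higher in 6 and lower in 2 of 8 tested genes of 19 listed, 3 higher without overlap and 0 passing. Of the 8, 2 entered the test only through ventilated arrays. The list median of 0.93 was 0.37 with the replicate block. The higher ones included Slc25a37, the mitochondrial iron importer (6.18 and 6.09 against 7.52, 8.86 and 9.03; 2.42 ± 0.44, adjusted p = 0.055), and Alas2, which begins haem synthesis in red cell precursors (2.83 ± 0.64, 0.0862). Cardiac muscle markers were higher in 8 of 8 tested genes of 20 listed, but 6 of the 8 entered the test only through ventilated arrays. Myl7, an atrial myosin chain, read 9.59 on prone replicate 2 and 7.92 on supine replicate 3 and 2.03 to 2.14 elsewhere, controls included. Smooth muscle markers were higher in 11 of 16, 3 without overlap (11.9% of all genes), with the actin-binding protein gene Cnn1 at 8.52 and 8.51 against 10.01, 10.69 and 12.34 (2.30 ± 0.56, adjusted p = 0.0977). The rise of Acta1 and the cardiac and smooth muscle values move on different arrays, and their relation was not tested.

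**Figure D3:**
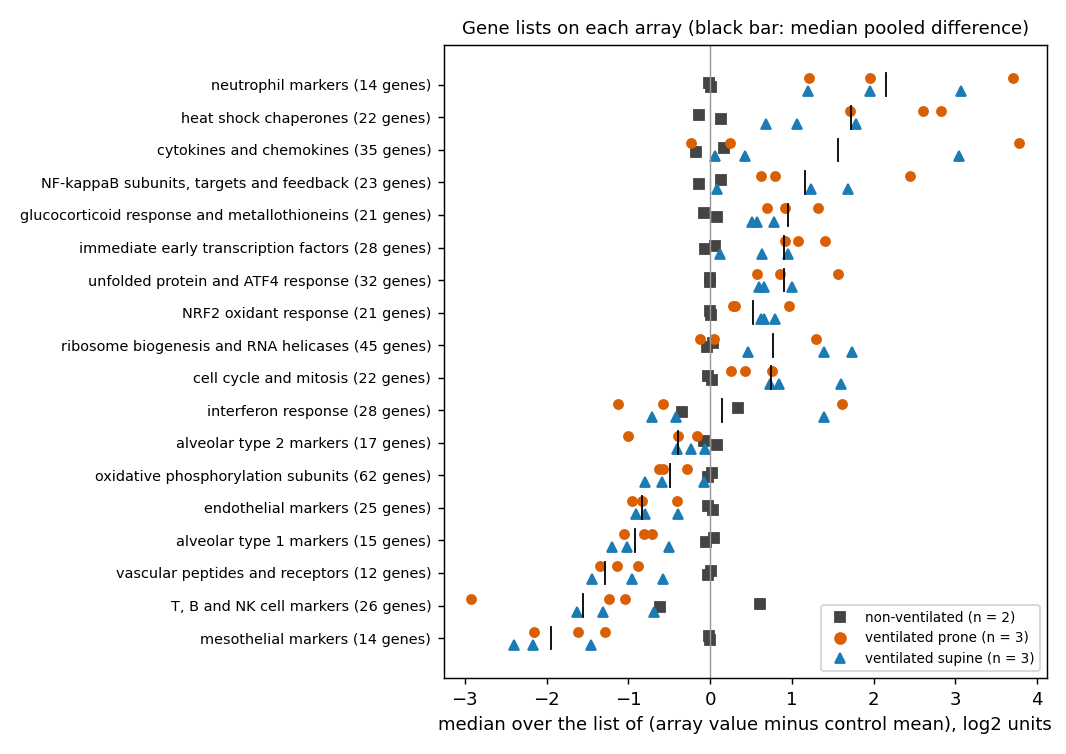
Median over each gene list of the array value minus the control mean (log2 units, x axis), 1 symbol per array, with the median pooled difference as a black bar. Neutrophil and heat shock lists lie to the right of both controls on all 6 ventilated arrays, mesothelial markers lie to the left on all 6, and the cytokine and interferon lists spread over several units.

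Cytokine genes differed widely between ventilated animals. Il6, the main acute-phase cytokine, read 3.65 and 2.32 in controls, 13.35, 12.82 and 6.46 on prone replicates 1 to 3 and 12.23, 4.05 and 12.42 on supine replicates 1 to 3. It was thus very high in 4 ventilated animals and low in prone replicate 3 and supine replicate 2, and its difference of 7.24 ± 2.49 did not pass (adjusted p = 0.173). Ccl7, a monocyte attractant, read 6.34 and 3.77 in controls, 12.85, 12.84 and 6.71 on prone and 13.30, 8.77 and 10.91 on supine arrays (5.84 ± 1.75, 0.136). Cxcl2, a neutrophil attractant, overlapped between the groups (4.07 ± 2.07, 0.311). Of 35 tested cytokines and chemokines 26 were higher, 7 of them without overlap (11.9% of all genes), and 9 of the 35 entered the test only through ventilated arrays. Their median of 1.56 was 0.83 without prone replicate 1 and 0.31 without the first prone and first supine arrays, and single ventilated arrays ranged from -0.23 to 3.78. Ccl5, made by T cells, was lower without overlap (-2.64 ± 1.27, adjusted p = 0.289).

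Several genes were high on the first prone and the first supine array alone. Ptges, an inducible prostaglandin E synthase, read 9.50 and 8.07 there and 2.67 to 2.79 on the other 6 arrays. The interferon-induced chemokine gene Cxcl9 read 9.97 and 7.86 there against 2.75 to 3.13 elsewhere, and Cxcl10 read 11.23 and 10.20 against 3.03 to 5.99. The pooled differences of these genes did not pass (adjusted p = 0.585, 0.634 and 0.754), and without those arrays Cxcl9 stood at -0.16 and Cxcl10 at -0.71. Interferon response genes as a list had 15 higher and 13 lower of 28, with 0 outside the range of the controls on every ventilated array. Both arrays carry replicate number 1 in their titles, and number and animal cannot be told apart.

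In the list of matrix proteases and inhibitors 13 of 21 tested genes were higher (6 without overlap) and 8 lower (3 without overlap), with 4 tested through ventilated arrays only. Of all genes, 11.9% were higher and 17.8% lower without overlap. Mmp9 and Mmp11 of this list are the calls given above, while others varied between ventilated animals. Adamts4, an aggrecanase, read 2.43 and 2.30 in controls, 10.39, 8.70 and 3.06 on prone and 9.75, 3.85 and 10.26 on supine arrays (5.30 ± 2.09, adjusted p = 0.218). Tfpi2, an inhibitor of serine proteases, read 4.36 and 4.28 in controls and 5.30, 10.25 and 12.18 in ventilated lungs (4.95 ± 1.89, 0.206). Both were lowest in prone replicate 3 and supine replicate 2, the animals with low Il6. Plau, the urokinase plasminogen activator, was lower without overlap (-1.52 ± 0.37, 0.0977).

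**Figure D4:**
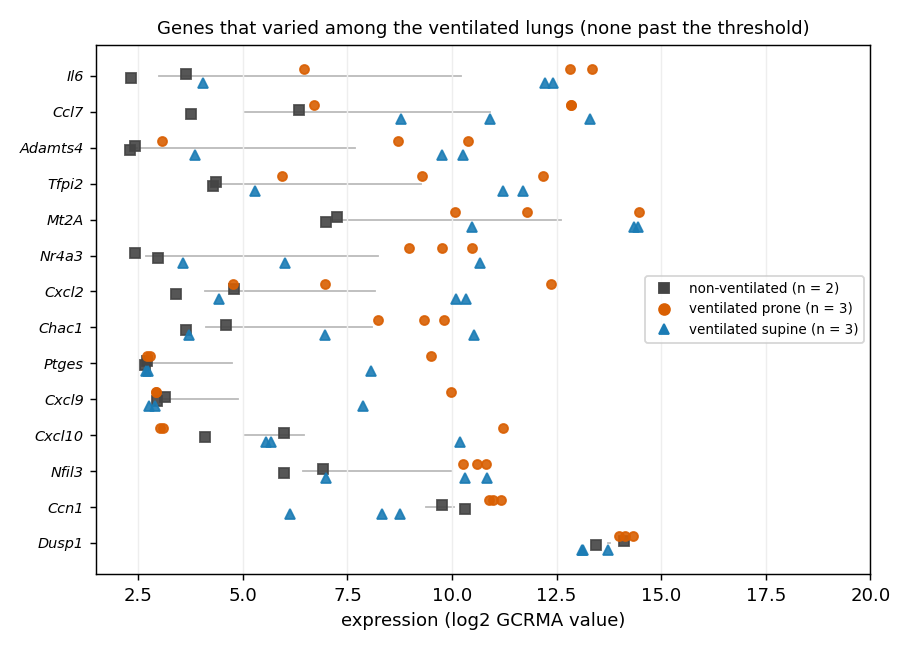
Values on each array (log2 GCRMA value, x axis) of 14 genes that did not pass the threshold, with symbols as for the called genes. Il6 runs from 4.05 to 13.35 among ventilated lungs, Cxcl9 and Ptges are high on 2 arrays, and Dusp1 lies within 13.10 and 14.32 on all arrays.

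In the list of early transcription factors of the stress response 23 of 28 tested genes were higher, 10 without overlap (11.9% of all genes). The list median was 0.91 (0.57 when the probe sets of a gene were averaged, 0.49 with supine arrays only). Of the 28, 4 entered the test only through ventilated arrays, Nr4a3 among them. Atf3, which is induced by many stresses, read 8.75 and 8.61 in controls and 9.93, 13.15 and 13.83 in ventilated lungs (3.87 ± 0.94, adjusted p = 0.0977). Nr4a3, an orphan nuclear receptor, read 2.42 and 2.96 against 3.56, 9.36 and 10.68 (5.55 ± 1.80, 0.154). Klf2, a flow-sensitive factor of endothelium, was lower without overlap (-1.25 ± 0.54, 0.249). Dusp1, which encodes the MAP kinase phosphatase 1 named in the title of the study, was bright on all arrays, at 14.12 and 13.44 in controls, 13.98, 14.14 and 14.32 on prone and 13.10, 13.12 and 13.74 on supine arrays. The groups overlapped, and the pooled difference was -0.05 ± 0.41 (adjusted p = 0.961), with a sign that turned when the arrays were centred on their medians. These values are those of its brightest probe set. A dimmer probe set of Dusp1 differed by -1.55 ± 1.86 (adjusted p = 0.671), and the mean of its probe sets by -0.80. Dusp14, a related phosphatase, was lower without overlap (-1.90 ± 0.52, 0.118).

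Unfolded protein and amino acid response genes were higher in 28 of 32 tested cases (2 through ventilated arrays only), 12 without overlap (11.9% of all genes). Their median was 0.90 (0.59 without the first prone and supine arrays). Atf4, the transcription factor of the amino acid response, read 12.82 and 12.90 against 13.60, 13.94 and 14.28, close together in every ventilated lung (1.07 ± 0.25, adjusted p = 0.087). Hspa5, the chaperone BiP of the endoplasmic reticulum, differed by 0.75 ± 0.27 (0.192). Chac1, which degrades glutathione, overlapped between the groups (3.98 ± 1.58, 0.219). Stretch and YAP/TAZ target genes had no common direction, with 11 higher and 14 lower of 25. Among them the growth factor gene Hbegf read 5.47 and 5.49 against 5.81, 7.96 and 9.22 (2.39 ± 0.83, 0.174), and Ccn1, a matricellular protein, was above both controls in all prone lungs and below both in all supine lungs.

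The prone and supine animals were pooled, so each called gene was also examined by position. For supine against prone lungs 0 of 16896 probe sets passed (limma, 691 at an unadjusted p under 0.05), and of the 82 called in the pooled comparison 4 had an unadjusted p under 0.05 (smallest adjusted p = 0.942). Against the same 2 controls, which both positions share, Il1r2 stood at 5.63 in prone and 5.69 in supine lungs. Fkbp5 stood at 1.77 and 1.91, Scel at -4.58 and -4.63, and Bnc1 at -3.72 and -3.79. Tmem100 stood at -3.34 in prone and -2.44 in supine lungs, a supine minus prone difference of 0.90 ± 0.38 (SE; adjusted p = 0.942). With 3 animals a position, a test that misses the threshold does not show that the positions act alike.

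How many genes passed depended on the fit and on single arrays. With the replicate number as a block, a fit in which the replicate 3 arrays have no control of their number and add nothing to the difference, 10 probe sets passed, 9 of them among the 82. The named ones were Scel, Bnc1, Il1r2, Stfa2l2, Tspyl4 and second probe sets of Lrrn4 and Arhgap1. With 1 mean for each position 24 passed, and with arrays weighted by quality 4403. Without control replicate 1 only Scel and Chst4 passed, and without control replicate 2 only Scel and Bnc1, so the other calls rest on having both controls. Without prone replicate 1, 2 or 3 the number was 16, 12 and 12, and without supine replicate 1 it was 58. Leaving out supine replicate 2 gave 409, and leaving out supine replicate 3, the array with the wide 3′ to 5′ gap, gave 67, of which 49 were among the 82. The calls kept in each fit without 1 ventilated array were 10 probe sets: those of Scel, Bnc1, Wnt2 and Tspyl4, second ones of Fkbp5, Cyp26b1, Lrrn4, Arhgap1 and Ppp1r16a, and 1 without a gene symbol. All 82 kept their direction in the 19 alternatives that tested them all.

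**Figure D5:**
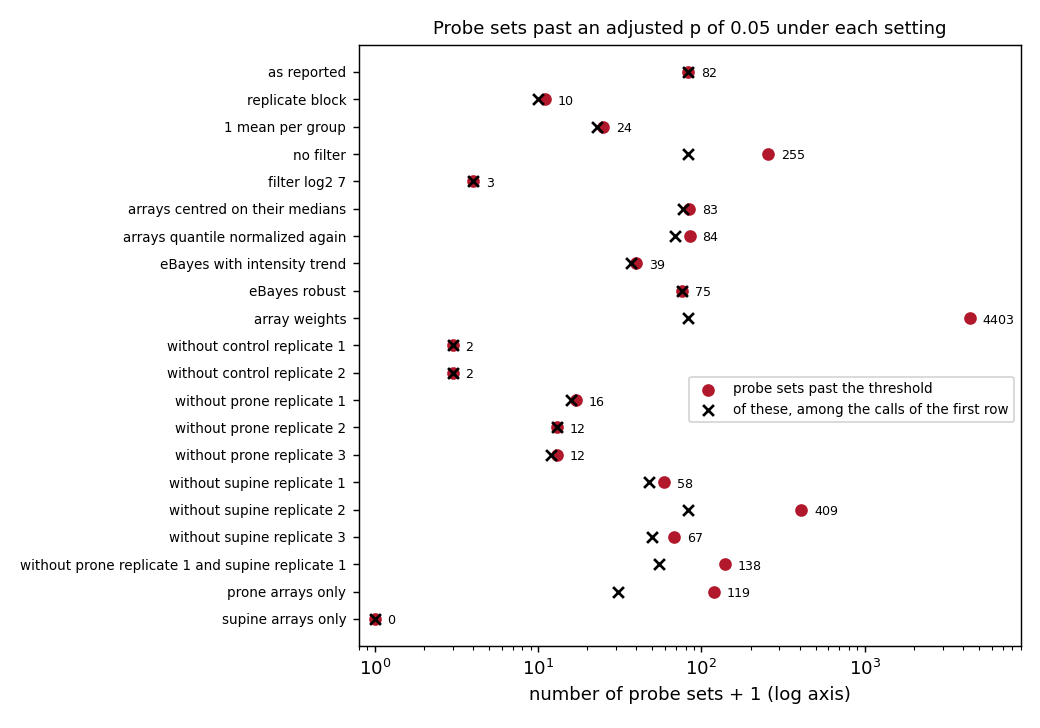
Number of probe sets past an adjusted p of 0.05 in the reported fit (82) and in 20 alternatives (red, plotted as the number plus 1 on a log axis), with those among the 82 as crosses. The count runs from 0 with supine arrays only to 4403 with array weights.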

How the data were processed

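Total RNA (300 ng per sample) was extracted with Trizol, biotin-labelled and hybridised to 1-colour Affymetrix rat arrays, per the labels' protocols. The values the authors deposited are log2 GCRMA summaries (background corrected, normalized and combined per probe set), and Partek 6.5 was used, per the submitters' processing notes. The authors' filters, centring, tests and scan batches are not given in the sources used. Detection calls played no part.

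Of 20242 probe sets, 28 Affymetrix controls were set aside and 16896 that reached log2 5 on 2 or more arrays were tested; 3318 were not, and a gene dim in 1 group could enter through the other. GEO's platform annotation gave 13155 tested probe sets 1 symbol, 319 several and 3422 none; RefSeq identifiers (GRCr8) changed 0 symbols. The brightest probe set stood for each of 10240 genes. A model with 1 mean for 6 ventilated and 1 for 2 control arrays was fitted with limma 3.58.1 in R 4.3.3 (lmFit, eBayes; 6 residual degrees of freedom), two-sided, Benjamini-Hochberg over all tested probe sets, threshold 0.05. Errors after ± are SEs, and 8 arrays limit the precision. The fit was also run on simulated data with independent noise and planted changes. Those data lack the correlation between same-numbered arrays given below, so they do not test the calls.

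Members, 46 gene lists (1198 genes, 924 tested), tests and alternatives were chosen with earlier results of these data known. Named were the 15 largest called, non-overlapping genes per direction with a group mean of at least log2 7 (filled by smallest p), up to 3 list members in the direction of the list median and 1 against it, called list members, and Dusp1; the text narrows these. Other called genes, Sftpc, Scgb1a1, Ager, Pecam1, COX2, second probe sets, promoter patterns, and Il1b, Il6st, Ccnb2, Ramp1, Sema3e, Icam2, Ahsa1, Chordc1, Atf4, Hspa5, Gclm, Scd2, S100a8 and S100a9 were chosen after their values were seen.

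The titles number the biological replicates across groups. Deviations from the group means correlated in all 7 same-numbered pairs (r 0.109 to 0.721; -0.591 to 0.404 in 14 other pairs across groups; the 2 controls mirror each other), so the adjusted p with replicate number as a block stands beside each called gene the report names. Other alternatives were 1 mean per group, other filters, centring, quantile normalization, eBayes with a trend or robust, array weights, averaged probe sets, and leaving out arrays.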

Additional observations from a re-analysis of the deposited data

Results flagged for a closer look

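Of 146 named genes, 11 (7.53%) had 1 ventilated array far from the other 5, where chance gives about 1 in 20. Among called genes these were Acta1 at 8.36 on prone replicate 1 (next 7.16), Vnn1 at 9.64 on prone replicate 1 (next 9.20), Scel at 2.72 and Mmp11 at 5.54 on supine replicate 2, Irx5 at 5.03 on the same array, and Dhh at 5.09 on supine replicate 3 (next 3.85). Supine replicate 2 also held the junction gene Cgn at 7.65 (next 6.59) and the transcription factor gene Nfil3 at 6.99, where the other ventilated arrays read 10.26 to 10.83. Supine replicate 3, the array with the wide 3′ to 5′ gap, held Slx4 at 8.37 (next 7.63), the ribosomal protein gene Rps3 at 12.58 (next 13.31) and Pecam1 at 10.36 (next 11.82); the part of RNA quality in these was not tested.

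Ccn1 is listed because the positions moved apart: controls read 9.76 and 10.31, prone arrays 11.18, 10.98 and 10.89 and supine arrays 8.75, 8.33 and 6.13. The supine minus prone difference of -3.28 ± 0.65 (SE) had an adjusted p of 0.942 (limma). Opposite sides of the controls were taken by 20 genes (0.195%) in all.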

How the results depend on the processing

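The count of 82 probe sets (28 higher, 54 lower) became 10 (4 and 6) with the replicate block, 24 (5 and 19) with 1 mean per group, 255 (83 and 172) with no filter, 3 (1 and 2) at a filter of log2 7, 39 (19 and 20) with an intensity trend and 4403 (1950 and 2453) with array weights. It was 138 (68 and 70) with both first ventilated arrays removed, 119 (57 and 62) with prone arrays only and 0 (0 and 0) with supine arrays only, where 2288 had an unadjusted p under 0.05. Leaving out 1 array gave 2 to 409 (0 to 193 higher, 2 to 216 lower). Centring (83), quantile normalization (84) and robust eBayes (75) stayed within 1.5 times. The causes were not tested, beyond fewer samples or probe sets where those were removed. The 3 calls at log2 7 were Cdh3 and second probe sets of Cyp26b1 and Fkbp5. The sign of Dusp1 turned when centred (0.037), quantile normalized (0.0045) or array weighted (0.011), without control replicate 1 (0.29), supine replicate 1 (0.08), supine replicate 2 (0.08) or both first ventilated arrays (0.05), and with prone arrays only (0.37); leaving out single arrays gave -0.39 to 0.29. COX2 turned when centred (0.030), without control replicate 2 (0.0065; range -0.11 to 0.013) and without both first ventilated arrays (0.013), as did Cxcl9 (-0.16; up to 2.28 with arrays left out) and Cxcl10 (-0.71; up to 2.36) in that last fit, and Ccn1 with prone arrays only (0.98). Among the 113 named genes without a call, which include those just listed, no further sign turned. Only 2 controls and dim values, with no detection calls, limit every fall to the low end of the scale.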

Other observations

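Hormone and matrix signals outside the comparisons above gave single wide differences. Inhba, a subunit of activin, read 5.25 and 5.94 in controls and 6.15, 7.79 and 8.72 in ventilated lungs (2.07 ± 0.64, adjusted p = 0.143), while its list of BMP, TGF-beta and Id genes had 12 higher and 19 lower of 31. Nfil3, a repressor of clock-controlled genes, differed by 3.52 ± 0.96 (0.118), and Dbp, a clock output factor, by -2.53 ± 1.06 (0.237), in a clock list with 8 higher and 9 lower of 17. P4ha1, a collagen prolyl hydroxylase, was higher without overlap (1.97 ± 0.69, 0.179), and Vegfa, the endothelial growth factor of the same hypoxia list, was lower without overlap (-0.82 ± 0.28, 0.174). Collagens, laminins and elastic fibre genes were higher in 17 and lower in 15 of 32. Pdgfra, a receptor of fibroblasts, was higher without overlap (1.19 ± 0.30, 0.103) where 17 of 19 tested fibroblast markers were lower.

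Enzymes that handle foreign compounds were lower in 19 of 25 tested genes by a median of -0.64, which was -0.16 without prone replicate 1, -0.40 without supine replicate 1 and -0.04 without both. Cyp1a1, induced by aryl hydrocarbons, read 10.11 and 9.55 in controls, 4.13, 7.29 and 5.32 on prone and 3.87, 8.59 and 4.21 on supine arrays (-4.26 ± 1.24, adjusted p = 0.131). Hpgd, which inactivates prostaglandins, overlapped between the groups (-2.18 ± 0.89, 0.227). Muc5b, an airway mucin, read 11.44 on prone replicate 2 and 9.08 on supine replicate 2, against 4.51 and 4.85 in controls (2.72 ± 1.55, 0.362). Proteasome subunits had 14 higher and 22 lower of 36, with Psmd12 higher without overlap (1.19 ± 0.32, 0.118). MHC class II genes were lower in 9 of 10, 2 of them without overlap, as were 17.8% of all genes. Their median of -0.28 was -0.15 without prone replicate 3, -0.17 without control replicate 1, -0.43 without the first prone and supine arrays and -0.08 with the replicate block.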
